A study of Mus musculus with 18 samples.

Results

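Control mouse gastruloids were compared at 72 h after aggregation, when their CHIR pulse ended, with untreated control gastruloids of 48 h, when it began. The comparison was defined by the labels and used 6 of the 18 libraries of the series, and it ran across all genes. Gastruloids are aggregates of embryonic stem cells that break symmetry and form, in culture, an axis like that of the posterior embryo. All groups were made from wild type (WT) cells of strain 129/SVEV. Libraries of 3 groups are compared here, 3 of each. Control gastruloids of 96 h (CHIR 48 to 72 h) and early gastruloids of 72 and 96 h (CHIR 24 to 48 h) are used only for levels over time. All 18 libraries entered the fit that gave the spread. The control 72 h gastruloids had received CHIR between 48 and 72 h. The control 48 h gastruloids had received none. The early 48 h gastruloids had received CHIR between 24 and 48 h and serve as an additional end-of-pulse group. The series has no untreated group of 72 h, so the effects of CHIR and of a further day in culture cannot be told apart. Gastruloids of a condition were pooled before extraction, and whether the 3 libraries of a group were grown apart is not in the labels. The p-values therefore rest on a spread between libraries that may be technical only.

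CHIR inhibits GSK3, the kinase that marks β-catenin for destruction. Stabilised β-catenin binds TCF/LEF factors at DNA and turns on Wnt target genes, among them inhibitors that damp the pathway again. In the embryo, Wnt signalling acts with Nodal, BMP and FGF to pattern the epiblast and to form the primitive streak, the site where mesoderm and endoderm arise. A brief CHIR treatment is the usual way to set gastruloids on this path.

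Levels are given in CPM, a read count divided by its library's size after TMM scaling, for replicates 1, 2 and 3 in that order, and changes as log2 fold changes ± SE, control 72 h over control 48 h. Genes with an adjusted p below 0.05 were called. The control 72 h libraries held 18197325, 18834585 and 14841728 counts and the control 48 h libraries 20566677, 21261160 and 16018036. Replicate 3 stood apart in both groups. Set against replicates 1 and 2, its counts gave chi-square values, divided by their degrees of freedom, of 16.2 to 19.1 in the 72 h group and 15.4 to 15.6 in the 48 h group. Between replicates 1 and 2 this value was 4.80 in the 72 h group and 1.94 in the 48 h group. Genes whose change moved by over 1.5 times without a library are named with that value below.

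Markers of the epiblast and the streak were present. The summed level of the streak list was 462, 575 and 366 FPKM in the 72 h libraries, against 5.78, 5.67 and 7.19 FPKM in the 48 h libraries. Most of the 72 h sum was T alone, at 336 ± 62.9 FPKM (SD, n = 3). Pou5f1, the pluripotency factor Oct4, was at 1369, 1360.0 and 1297 CPM at 72 h and 1277, 1278 and 1210.3 CPM at 48 h and did not pass the test (adjusted p = 0.73). Other epiblast genes changed, as given below, with Nanog higher, Sox2 lower and 11 of 12 formative epiblast genes lower at 72 h. Markers of other cell types were summed over all listed names, and the number that passed the filter on low counts is given with each. Trophoblast markers (4 of 8) came to 1.03, 0.720 and 1.35 FPKM at 72 h and 1.82, 1.87 and 2.09 FPKM at 48 h. Feeder fibroblast markers (6 of 9) came to 6.39, 6.73 and 6.09 FPKM at 72 h and 9.60, 10.9 and 12.1 FPKM at 48 h. Neural markers (10 of 15) came to 17.9, 19.8 and 19.8 FPKM at 72 h and 26.6, 25.3 and 24.6 FPKM at 48 h. These 3 sums were lower in every 72 h library, while that of extraembryonic endoderm was higher, mostly through the lipid carrier gene Apoe. Extraembryonic endoderm markers (10 of 11) came to 206, 208 and 222 FPKM at 72 h and 137, 137 and 143 FPKM at 48 h. Blood and endothelium markers (10 of 14) came to 8.61, 11.2 and 10.3 FPKM at 72 h and 9.98, 9.67 and 10.5 FPKM at 48 h, with overlapping libraries. The immune list (1 of 4) came to 2.79, 2.86 and 4.18 FPKM at 72 h and 3.97, 5.07 and 7.43 FPKM at 48 h. Csf1r, Hba-x, Hbb-y, Hbb-bh1, Lum, Tpbpa and Prl3d1 were at 0 in all 6 libraries, but the sums above show that other markers of these lists were present. The feeder fibroblast marker Dcn was at 0.320, 0.365 and 0.325 CPM at 72 h and 5.86, 6.28 and 7.50 CPM at 48 h. The part of these cells in the changes below was not tested. In such pooled tissue, fewer cells of a type and less RNA per cell cannot be told apart.

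Over the pulse, 4989 of 16041 tested genes rose (31.1%) and 4859 fell (30.3%). A change of at least 2-fold was seen in 1767 genes that rose (11.0%) and 1561 that fell (9.73%). All 3 libraries of 72 h lay above all 3 of 48 h for 5391 genes (33.6%) and below them for 5197 (32.4%). The median log2 fold change over all tested genes was 0.01. Counts for gene lists are read against these shares.

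The 8 largest rises included T, Cdx1, Nkx1-2 and Evx1, and the 8 largest falls included Foxd3, Fgf4 and Epas1. Both sets were taken from called genes whose libraries did not overlap between groups, so that separation was a condition of choice and not a result. T, the brachyury factor of streak and tailbud (chr17:8434423-8442496), was at 1008, 1263 and 872 CPM at 72 h, against 0.713, 0.297 and 0.769 CPM at 48 h. Its log2 fold change was 10.81 ± 0.28 (adjusted p = 1.4e-15). Cdx1, a caudal homeobox factor on chromosome 18, was at 31.3, 49.1 and 132 CPM at 72 h and at 0 in every 48 h library. Against a floor of 3 counts over the 48 h group it was at least 1232-fold higher, and at least 745-fold higher without replicate 3 of 72 h. Nkx1-2, a homeobox factor of the caudal epiblast (chr7:132594878-132599637), was at 248, 328 and 468 CPM at 72 h, against 1.37, 1.19 and 1.22 CPM at 48 h (8.10 ± 0.27, adjusted p = 3.0e-14). Evx1, an even-skipped homeobox factor of the streak (chr6:52313498-52318378), was at 75.5, 94.0 and 41.3 CPM at 72 h and 0.153, 0.0990 and 0.192 CPM at 48 h (8.87 ± 0.51, adjusted p = 5.9e-11). Of these 4 genes Cdx1 differed most among its own 72 h libraries, with replicate 3 the highest.

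The anterior Hox genes Hoxb1 and Hoxb2, which pattern the hindbrain and the early trunk, also stood among the 8 largest rises. Hoxb1 (chr11:96365752-96368256) was at 18.98, 29.9 and 164 CPM at 72 h and 0.0509, 0.0990 and 0.256 CPM at 48 h. Its log2 fold change of 9.03 ± 1.14 (adjusted p = 1.8e-06) was 7.53 without replicate 3 of 72 h and 9.73 without replicate 3 of 48 h. Hoxb2 (chr11:96350525-96354012) was at 2.77, 6.10 and 50.7 CPM at 72 h and 0, 0.0495 and 0.0641 CPM at 48 h, where it had 2 counts in all. The ratio of its levels was 494 (exact 95% interval 136 to 4083, counting error only), and its fitted log2 fold change of 8.82 was 6.71 without replicate 3 of 72 h. Replicate 3 held the highest 72 h level of both genes. The same was true of all 7 genes of Hox groups 1 to 4 that averaged at least 1 CPM at 72 h. Levels of these groups summed to 16.4, 26.5 and 173 FPKM at 72 h and to 0.222, 0.346 and 0.349 FPKM at 48 h. Of the 12 measured genes of Hox groups 1 to 4, 8 rose and none fell, while 1 of 12 of groups 5 to 9 rose and 0 of 2 of groups 10 to 13 did. With the replicate number as a block in the fit, 3 of groups 5 to 9 rose, and without the 3 control libraries numbered 3 there were 2. On the deposited FPKM, tested as log2(FPKM + 1), 3 of groups 1 to 4 and none of groups 5 to 9 rose.

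Foxd3, a forkhead factor that maintains the epiblast (chr4:99656299-99658622), fell to 1.01, 0.469 and 0.390 CPM at 72 h, against 67.1, 62.6 and 61.0 CPM at 48 h (-6.63 ± 0.21, adjusted p = 1.5e-14). Fgf4, the main FGF ligand of pluripotent cells (chr7:144847367-144865243), was at 6.50, 6.57 and 8.25 CPM at 72 h and 195, 200.3 and 178 CPM at 48 h (-4.76 ± 0.12, adjusted p = 1.1e-15). Epas1, the hypoxia-inducible factor subunit HIF-2α (chr17:86753700-86833410), was at 1.07, 1.35 and 1.105 CPM at 72 h and 22.4, 24.3 and 23.7 CPM at 48 h (-4.30 ± 0.18, adjusted p = 6.3e-13). In all 3 genes the spread among the 72 h libraries was small against the 48 h level. The other 5 of the 8 largest falls, by log2 fold change, were the cytokine genes Il10 (-5.27 ± 0.25) and Tnfsf11 (-4.93 ± 0.23), the ribosomal protein paralogue Rpl39l (-4.54 ± 0.30), the homeodomain-only gene Hopx (-4.37 ± 0.21) and the feeder fibroblast marker Dcn, the matrix proteoglycan decorin (-4.25 ± 0.32). At 72 h these 5 were below 1 CPM in every library, from lowest mean to highest 0.277 ± 0.130, 0.337 ± 0.0246, 0.390 ± 0.124, 0.437 ± 0.110 and 0.446 ± 0.223 CPM for Il10, Dcn, Tnfsf11, Hopx and Rpl39l (SD, n = 3). Their 48 h means in the same order were 11.1 ± 0.940, 6.55 ± 0.853, 12.1 ± 1.61, 9.07 ± 0.473 and 10.3 ± 3.43 CPM.

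**Figure D1:**
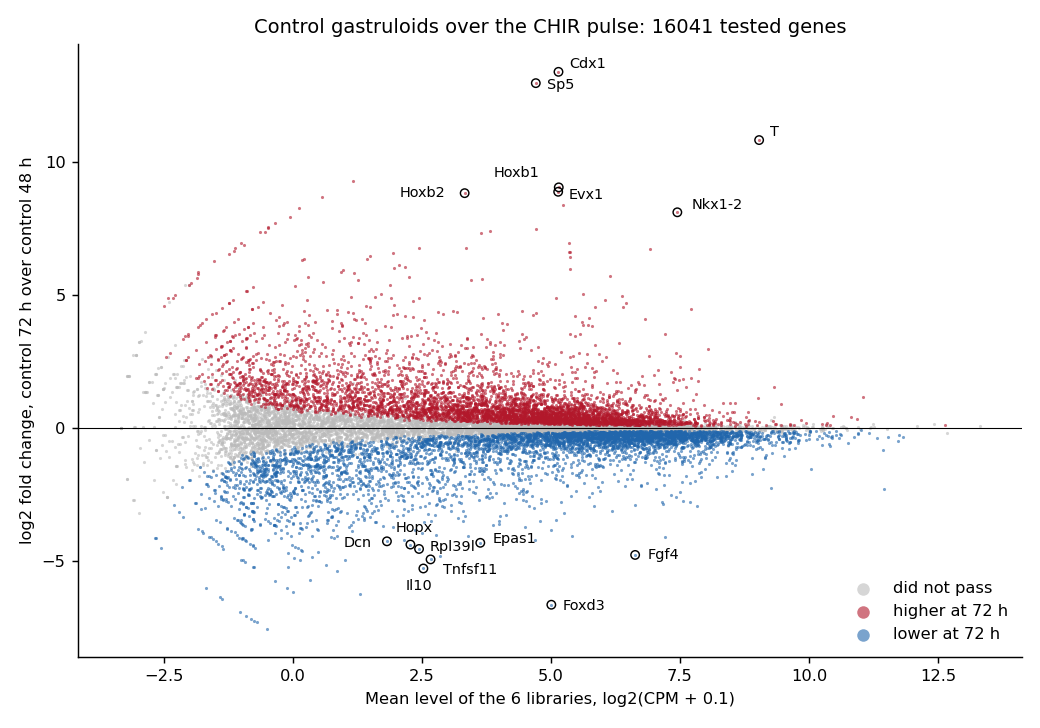
Each point is 1 of 16041 tested genes, with the mean level of the 6 libraries as log2(CPM + 0.1) on the x axis and the fitted log2 fold change, control 72 h over control 48 h, on the y axis. Red genes were called higher at 72 h and blue genes lower, grey genes did not pass, and the genes with the largest changes that are named in the text are ringed, from Cdx1 and Sp5 at the top to Foxd3 at the bottom.

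The largest changes in the amount of transcript, on the length-scaled FPKM scale on which genes can be compared with each other, were partly in other genes. T gained most among called genes, at 336 ± 62.9 FPKM at 72 h, against 0.169 ± 0.0833 FPKM at 48 h (SD, n = 3). Scd2, a desaturase that makes monounsaturated fatty acids (chr19:44293674-44306864), was at 467 ± 27.3 FPKM at 72 h and 195 ± 7.19 FPKM at 48 h, a log2 fold change in counts of 1.16 ± 0.04 (adjusted p = 7.6e-14). Rbbp7, a histone-binding subunit of Polycomb and deacetylase complexes (chrX:162760402-162779092), was at 367 ± 21.6 FPKM at 72 h and 114 ± 1.88 FPKM at 48 h (1.54 ± 0.05, adjusted p = 3.5e-14). Its counts were 911, 959 and 990.0 CPM at 72 h and 323, 334 and 324 CPM at 48 h, so the groups were far apart and each was even. Over all tested genes, changes in FPKM lay above those in counts by a median of 0.09 to 0.10 on the log2 scale. The other 2 of the 5 largest gains were small against high levels. They were the ribosomal protein gene Rps9 (0.18 ± 0.04, adjusted p = 0.0011) and the chaperone gene Hsp90ab1 (0.11 ± 0.04, adjusted p = 0.043), whose libraries overlapped between groups and whose call was lost without replicate 2 or 3 of 72 h or replicate 1 or 3 of 48 h (adjusted p up to 0.19). Genes of these families have near-identical copies in the genome, so their counts are uncertain where reads could be split. The 5 largest losses were Dnmt3b, a de novo DNA methyltransferase (chr2:153649450-153687730), at 194 ± 23.5 FPKM at 72 h and 874 ± 23.3 FPKM at 48 h, Dppa5a, an RNA-binding protein of pluripotent cells, at 195 ± 27.5 FPKM at 72 h and 633 ± 50.1 FPKM at 48 h, Hsp90aa1, Fth1 and Ptma. The chaperone gene Hsp90aa1 was at 511 ± 56.3 FPKM at 72 h and 833 ± 56.5 FPKM at 48 h. Fth1, the ferritin heavy chain, was at 327 ± 7.98 FPKM at 72 h and 641 ± 29.3 FPKM at 48 h, and Ptma, prothymosin, at 1489.5 ± 102 FPKM at 72 h and 1784 ± 79.0 FPKM at 48 h.

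Feedback and target genes of the Wnt pathway rose as a list: of 14 measured members 12 rose, 1 fell and 1 did not pass, with a median log2 fold change of 2.42. Sp5, an Sp-family repressor and direct Wnt target (chr2:70474923-70477729), was at 50.9, 56.3 and 49.0 CPM at 72 h and at 0 in all 3 libraries of 48 h, at least 967-fold higher against the floor of 3 counts over the group (adjusted p = 3.5e-13). Tnfrsf19, a receptor of the TNF family, was at 115, 121 and 149 CPM at 72 h, against 4.63, 4.01 and 5.32 CPM at 48 h (4.79 ± 0.11, adjusted p = 3.0e-16). Axin2, a scaffold of the β-catenin destruction complex, was at 215, 234 and 196 CPM at 72 h and 12.02, 12.3 and 13.7 CPM at 48 h (4.09 ± 0.07, adjusted p = 2.0e-17). Nkd1, which binds Dishevelled and damps the signal, was at 40.6, 41.1 and 39.1 CPM at 72 h and 4.84, 3.71 and 3.40 CPM at 48 h (3.33 ± 0.12, adjusted p = 7.3e-14). No library of 48 h reached the 72 h levels of these 4 genes. Ascl2, a basic helix-loop-helix factor, was the member that fell, to 1.12, 1.04 and 1.95 CPM at 72 h against 2.34, 1.78 and 2.76 CPM at 48 h (-0.75 ± 0.25, adjusted p = 0.015). Its libraries overlapped, and the call was lost without replicate 1 or 2 of 72 h or replicate 3 of 48 h (adjusted p = 0.066 to 0.078).

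Promoters of members of the feedback and streak lists that rose are shown because β-catenin acts through TCF/LEF factors at DNA, and the letters CTTTGAA and CTTTGAT are the core of their binding motif. Windows of 300 bases, 250 before and 50 after a start site, came from RefSeq (GRCm38.p6), with both strands searched. Of 32851 windows in the table, 2842 (8.65%) held a match, as did any window of 7.17% of the tested genes in the table. The members were listed as Wnt feedback, target or streak genes and kept only if they rose, so their share is no test of the motif. Genes with more windows also had more chances of a match. Of 22 members that rose 16 were in the table, and 6 of these (37.5%) had a match, in 6 of their 24 windows. Those of the 4 with the largest change follow, 5′ to 3′ on the gene's own strand, with the match in capitals.
Sp5: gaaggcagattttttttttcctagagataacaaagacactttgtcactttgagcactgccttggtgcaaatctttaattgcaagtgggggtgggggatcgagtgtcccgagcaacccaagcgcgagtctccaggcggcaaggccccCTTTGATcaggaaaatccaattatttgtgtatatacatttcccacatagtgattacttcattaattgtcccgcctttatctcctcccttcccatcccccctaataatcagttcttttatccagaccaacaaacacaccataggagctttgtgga
T: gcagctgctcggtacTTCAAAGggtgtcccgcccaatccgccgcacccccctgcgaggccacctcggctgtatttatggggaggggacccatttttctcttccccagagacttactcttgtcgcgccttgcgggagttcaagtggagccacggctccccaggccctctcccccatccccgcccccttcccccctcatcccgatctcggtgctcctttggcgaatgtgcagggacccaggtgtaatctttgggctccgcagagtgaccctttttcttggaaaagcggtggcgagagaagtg
Dkk1: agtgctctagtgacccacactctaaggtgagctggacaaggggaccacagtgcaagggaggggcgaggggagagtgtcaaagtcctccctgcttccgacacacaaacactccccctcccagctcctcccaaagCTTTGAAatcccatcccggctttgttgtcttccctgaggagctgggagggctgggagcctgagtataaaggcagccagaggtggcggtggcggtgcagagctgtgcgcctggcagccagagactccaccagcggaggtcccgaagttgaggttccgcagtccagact
Tnfrsf19: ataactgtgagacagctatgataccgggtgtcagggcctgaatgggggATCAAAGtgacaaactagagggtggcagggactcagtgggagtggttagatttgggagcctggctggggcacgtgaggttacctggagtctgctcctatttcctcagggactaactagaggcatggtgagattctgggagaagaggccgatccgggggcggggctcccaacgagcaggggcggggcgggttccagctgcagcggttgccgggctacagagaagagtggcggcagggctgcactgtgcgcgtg
The Sp5 window is chr2:70474673-70474972 on the plus strand, with CTTTGAT at base 147. That of T is chr17:8434173-8434472 on the plus strand, with CTTTGAA on its reverse strand at base 16. The Dkk1 window is chr19:30549447-30549746 on the minus strand, with CTTTGAA at base 134, and the Tnfrsf19 window is chr14:61037938-61038237 on the minus strand, with CTTTGAT on the reverse strand at base 49. These matches start 104, 235, 117 and 202 bases before the start sites of Sp5, T, Dkk1 and Tnfrsf19. A match is a string of letters and not a measured site. Axin2, the feedback gene with the lowest adjusted p, had none in its window.

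Secreted antagonists moved both ways. Of 11 measured genes 5 rose, 2 fell and 4 did not pass, with a median of 0.66. Notum and Dkk1 were also counted in the feedback list above. Notum, an enzyme that strips the lipid from Wnt proteins, was at 27.8, 30.4 and 33.5 CPM at 72 h, against 2.80, 3.27 and 4.49 CPM at 48 h (3.14 ± 0.30, adjusted p = 4.8e-08). Dkk1, which blocks the LRP coreceptors, was at 6.66, 10.01 and 4.35 CPM at 72 h and 0.306, 0.198 and 0.192 CPM at 48 h (4.88 ± 0.47, adjusted p = 5.5e-08). Dkk4, an antagonist of the same family, was at 1.87, 2.14 and 4.29 CPM at 72 h and at 0 in every 48 h library, at least 49.2-fold higher (adjusted p = 1.2e-07), and highest in replicate 3. Sfrp1, which binds Wnt proteins directly, went the other way. It was at 7.09, 8.18 and 8.32 CPM at 72 h, against 17.1, 19.3 and 15.5 CPM at 48 h (-1.14 ± 0.10, adjusted p = 2.3e-08), and every 72 h library was below every 48 h library.

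Wnt ligands rose almost throughout, 8 of 10 measured, none fell, and the median was 3.94. Wnt8a, a ligand of the early streak, was at 179, 184 and 352 CPM at 72 h, against 1.37, 1.73 and 3.97 CPM at 48 h (6.72 ± 0.30, adjusted p = 1.7e-12), and replicate 3 was the highest in both groups. Wnt3, required for streak formation, was at 62.8, 53.3 and 33.5 CPM at 72 h and 2.90, 2.08 and 2.5001 CPM at 48 h (4.32 ± 0.26, adjusted p = 1.1e-10). Wnt5b, a ligand usually placed outside the β-catenin branch, was at 39.6, 41.1 and 42.4 CPM at 72 h and 2.09, 1.88 and 1.92 CPM at 48 h (4.38 ± 0.14, adjusted p = 1.8e-14), with the evenest libraries of the 4 ligands named. Wnt3a, which maintains the tailbud, was at 7.52, 10.9 and 7.60 CPM at 72 h, against 0.0509, 0.0990 and 0.256 CPM at 48 h (6.04 ± 0.35, adjusted p = 7.0e-11; 6.74 without replicate 3 of 48 h).

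Receptor genes moved in both directions. Of 15 measured genes 8 rose, 5 fell and 2 did not pass, with a median of 0.31. Fzd10 was the frizzled receptor that rose most, at 139, 160.2 and 208 CPM at 72 h against 4.63, 5.39 and 10.1 CPM at 48 h (4.69 ± 0.19, adjusted p = 3.5e-13). Ror2, a receptor tyrosine kinase for Wnt5a-type ligands, was at 95.995, 110.4 and 107 CPM at 72 h and 6.62, 6.23 and 9.23 CPM at 48 h (3.84 ± 0.10, adjusted p = 1.7e-15). Fzd6 rose less, with 30.6, 38.0 and 32.6 CPM at 72 h and 16.3, 15.6 and 12.4 CPM at 48 h (1.18 ± 0.10, adjusted p = 6.0e-09). Fzd7, a frizzled receptor of pluripotent cells, fell to 54.3, 51.5 and 40.7 CPM at 72 h, against 302, 302 and 285 CPM at 48 h (-2.60 ± 0.18, adjusted p = 6.3e-10). Fzd8 (-1.24 ± 0.14, adjusted p = 3.8e-07) and Fzd5 (-0.62 ± 0.10, adjusted p = 3.7e-05) fell by less, and for all 5 of these frizzled genes the groups did not overlap.

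Among the nuclear factors, Tcf7l1, a TCF that mostly represses and restrains the naive programme, fell to 45.6, 38.6 and 35.6 CPM at 72 h, against 188, 186 and 149.9 CPM at 48 h (-2.13 ± 0.15, adjusted p = 6.3e-10). Tcf7, a TCF that mostly activates, was at 177, 182 and 178 CPM at 72 h and 124, 122 and 116 CPM at 48 h (0.57 ± 0.05, adjusted p = 9.7e-09). For both genes the groups were well separated, in opposite directions. Pygo1, a β-catenin coactivator, was low, at 4.53, 3.39 and 6.37 CPM at 72 h against 1.02, 0.643 and 0.577 CPM at 48 h (2.63 ± 0.25, adjusted p = 4.0e-08), and Dvl3, a Dishevelled protein that relays the receptor signal, rose by 0.68 ± 0.06 (adjusted p = 9.8e-09). Ctnnb1, which encodes β-catenin itself, was at 765, 798 and 766 CPM at 72 h and 908, 902 and 852 CPM at 48 h (-0.19 ± 0.04, adjusted p = 0.00016), a call and direction that did not hold on deposited FPKM (0.04, adjusted p = 0.82 on log2(FPKM + 1)). Of the 17 measured genes of the β-catenin machinery 8 rose and 3 fell, with a median of 0.09.

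**Figure D2:**
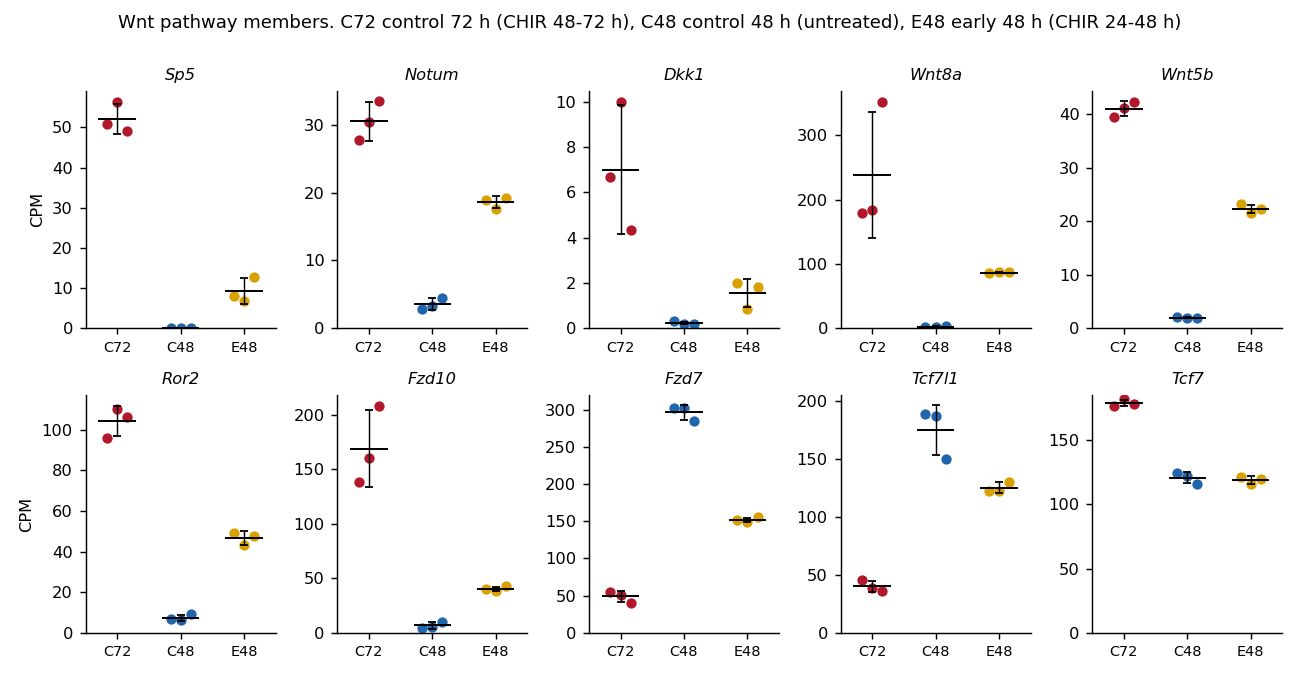
Levels in CPM of 10 Wnt pathway genes in the control 72 h (C72, red), control 48 h (C48, blue) and early 48 h libraries (E48, yellow), with points for libraries and bars for the mean ± SD of 3. Sp5, Notum, Dkk1, Wnt8a, Wnt5b, Ror2, Fzd10 and Tcf7 were higher and Fzd7 and Tcf7l1 lower at control 72 h than in every library of the other groups, as Fzd7 shows with 54.3, 51.5 and 40.7 CPM.

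Genes of the caudal epiblast and tailbud rose in 13 of 14 cases and none fell, and 10 of 13 streak genes rose. Sp8, an Sp-family factor of the tailbud and limb ridge, was at 64.4, 70.5 and 64.9 CPM at 72 h, against 2.19, 2.33 and 2.18 CPM at 48 h (4.89 ± 0.16, adjusted p = 2.1e-14). Fgf8, the FGF that lets cells leave the streak, was at 43.2, 51.1 and 48.1 CPM at 72 h and 2.19, 1.98 and 3.46 CPM at 48 h (4.25 ± 0.26, adjusted p = 1.5e-10). The apelin ligand and its receptor, which mark nascent mesoderm, moved together. Apln was at 73.2, 103 and 83.8 CPM at 72 h and 8.66, 6.93 and 6.80 CPM at 48 h (3.53 ± 0.20, adjusted p = 5.5e-11). Aplnr was at 3.14, 7.82 and 1.88 CPM at 72 h and 0.0509, 0.148 and 0 CPM at 48 h (5.81 ± 1.15, adjusted p = 0.00025), a value of 5.03 without replicate 2 of 72 h and 6.98 without replicate 2 of 48 h. Kit, the receptor of stem cell factor, was at 51.8, 55.6 and 46.9 CPM at 72 h and 10.8, 11.0 and 9.04 CPM at 48 h (2.31 ± 0.11, adjusted p = 2.4e-12). Presomitic and somite genes rose in 3 of 12 cases and fell in 4, near the shares over all tested genes (31.1% and 30.3%). Early mesoderm genes rose in 6 of 12 cases and fell in 2. With the replicate block 5 presomitic and somite genes rose, and on log2(FPKM + 1) 1 did.

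**Figure D3:**
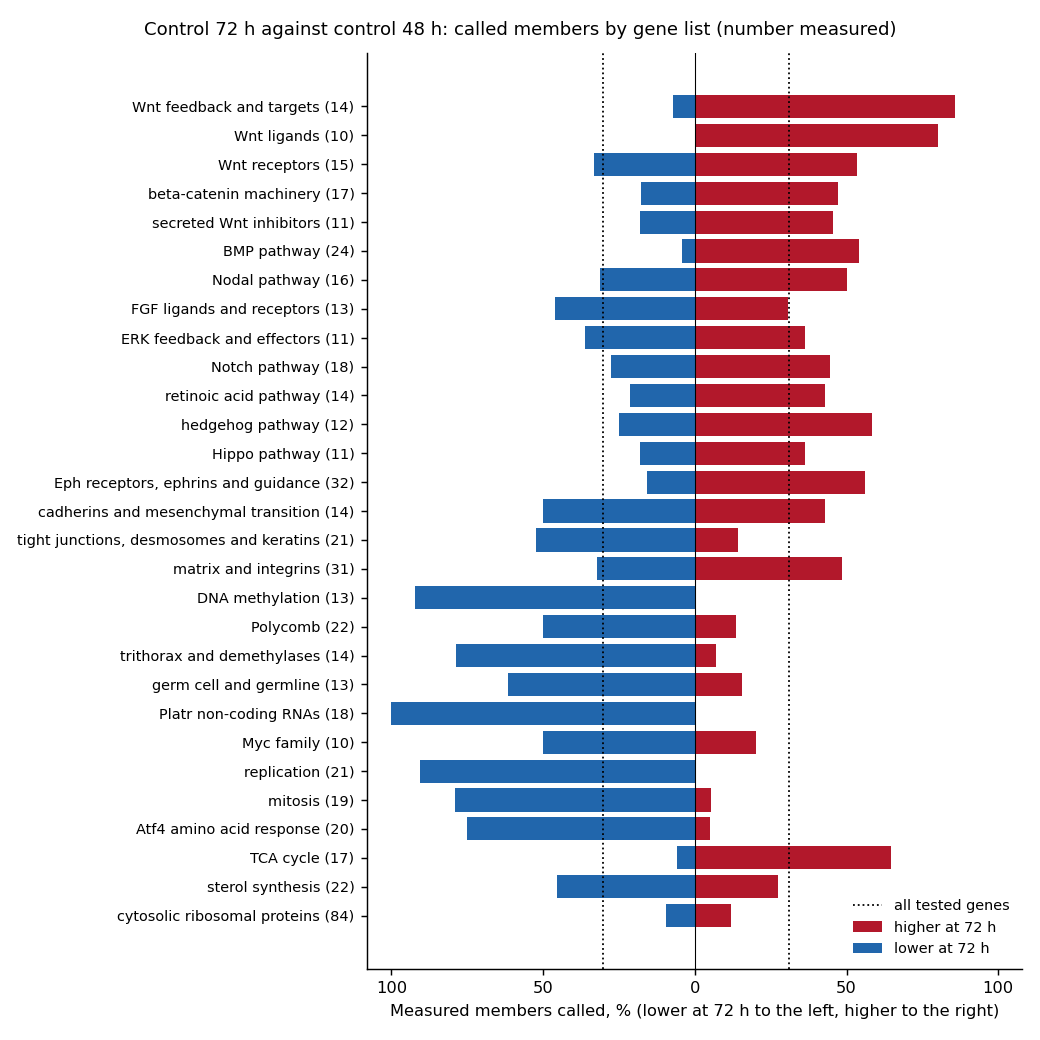
For 29 of the 63 gene lists, the share of measured members called higher (red, to the right) or lower (blue, to the left) at control 72 h than at control 48 h, with the number measured in brackets and the shares over all tested genes, 31.1% and 30.3%, as dotted lines. Among the lists drawn, Wnt feedback genes reach furthest to the right, and Platr RNAs, DNA methylation and replication genes furthest to the left.

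The DNA methylation machinery fell. Of 13 measured genes none rose, 12 fell and 1 did not pass, with a median of -0.58. Dnmt3l, the inactive partner that stimulates the de novo enzymes, fell to 5.76, 5.21 and 6.04 CPM at 72 h, against 55.0, 61.8 and 70.8 CPM at 48 h (-3.46 ± 0.14, adjusted p = 3.0e-13). The de novo methyltransferase Dnmt3b was at 1055, 997 and 803 CPM at 72 h and 4717, 4761 and 4421 CPM at 48 h (-2.28 ± 0.07, adjusted p = 1.2e-14). Its sister Dnmt3a was at 219, 215 and 210.5 CPM at 72 h and 959, 1026 and 1054 CPM at 48 h (-2.24 ± 0.10, adjusted p = 1.2e-12). Trim28, the corepressor that keeps imprints and repeats silent, was at 1084, 1072 and 1070.3 CPM at 72 h and 1661, 1648 and 1531 CPM at 48 h (-0.58 ± 0.04, adjusted p = 2.6e-10). The libraries of all 4 were fully separated. Tet2, which oxidises methylcytosine, averaged 8.18 ± 0.614 CPM at 72 h and 7.27 ± 2.56 CPM at 48 h (0.19, adjusted p = 0.51), and its change was -0.0070 without replicate 1 of 48 h. Without the 3 control libraries numbered 3 it was called higher (0.42, adjusted p = 0.03). The formative epiblast list, which holds Dnmt3a and Dnmt3b too, had 11 of 12 members lower and none higher.

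Pluripotency factors moved in different directions, but more fell than rose. On the core list 2 of 13 measured genes rose and 7 fell, with a median of -0.28. Nanog was at 342, 313 and 242 CPM at 72 h, against 39.2, 40.1 and 49.7 CPM at 48 h (2.80 ± 0.12, adjusted p = 1.1e-12), while Sox2 was at 28.5, 29.9 and 61.1 CPM at 72 h and 189, 177 and 159.8 CPM at 48 h (-2.15 ± 0.25, adjusted p = 4.9e-07), with replicate 3 the highest at 72 h and the lowest at 48 h. Of the 16 measured Sox genes 3 rose and 6 fell, and 1 rose on log2(FPKM + 1) or without the 3 control libraries numbered 3. Sox4, a factor of many progenitors, was at 31.3, 32.8 and 30.8 CPM at 72 h and 128, 121 and 131 CPM at 48 h (-2.001 ± 0.10, adjusted p = 8.0e-12). Sox3, which overlaps with Sox2 in the epiblast and neural plate, was at 14.0, 13.9 and 22.4 CPM at 72 h and 42.2, 39.6 and 39.3 CPM at 48 h (-1.28 ± 0.19, adjusted p = 9.5e-06). Sox15, a factor of pluripotent cells, fell by 2.05 ± 0.22 (adjusted p = 1.8e-07) in counts but is listed at 0 in the deposited FPKM, which gave no change. Platr transcripts are non-coding RNAs first catalogued by their link to the pluripotent state, and all 18 that were measured of 29 fell, with a median of -1.65. Platr10 was the most abundant of those named, at 64.0, 58.7 and 69.4 CPM at 72 h and 201, 212 and 205 CPM at 48 h (-1.69 ± 0.07, adjusted p = 4.3e-13). Platr4 (-2.05 ± 0.22, adjusted p = 1.9e-07) and Platr12 (-2.52 ± 0.29, adjusted p = 5.7e-07) were low. Platr4 averaged 2.13 ± 0.514 CPM at 72 h and 8.98 ± 3.13 CPM at 48 h, and Platr12 0.458 ± 0.133 CPM at 72 h and 2.64 ± 0.507 CPM at 48 h (SD, n = 3).

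Genes of the germline fell in 8 of 13 cases and rose in 2, 1 of which was Kit. Dazl, an RNA-binding protein of germ cells, was at 2.24, 2.14 and 3.18 CPM at 72 h, against 13.8, 13.9 and 15.1 CPM at 48 h (-2.51 ± 0.16, adjusted p = 1.4e-10). Mael (-2.01 ± 0.16, adjusted p = 3.0e-09) and Tdrd12 (-1.95 ± 0.16, adjusted p = 4.5e-09), both of the piRNA pathway that silences transposons, fell with separated libraries. All 3 measured genes of the 6 on the two-cell-like list fell, from Zscan4d (-2.44) and Zscan4f (-2.35, but -1.73 without replicate 3 of 48 h) to Zscan4c (-1.73). The Zscan4 genes are near-identical copies, so the split of reads between them is uncertain, and none averaged over 0.467 ± 0.230 CPM at 72 h or 2.03 ± 1.13 CPM at 48 h.

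In the Nodal pathway, which acts with Wnt to form the streak, 8 of 16 measured genes rose and 5 fell, with a median of 0.11. The ligand Nodal was at 148, 129 and 73.8 CPM at 72 h, against 30.2, 31.3 and 46.7 CPM at 48 h (1.71 ± 0.20, adjusted p = 5.5e-07). Replicate 3 was the lowest of the 72 h libraries and the highest of the 48 h libraries, so the groups were nearest to each other in it. Furin, a convertase that activates the Nodal precursor, was at 46.3, 42.7 and 40.9 CPM at 72 h and 23.2, 20.9 and 19.9 CPM at 48 h (1.02 ± 0.09, adjusted p = 2.7e-08). Smad3, a transducer of the signal, was at 40.8, 42.1 and 35.6 CPM at 72 h and 20.3, 18.9 and 18.98 CPM at 48 h (1.03 ± 0.08, adjusted p = 2.4e-09). Gdf3, a partner ligand of Nodal in the epiblast, fell to 7.995, 6.05 and 9.16 CPM at 72 h, against 47.9, 50.9 and 45.1 CPM at 48 h (-2.64 ± 0.14, adjusted p = 2.1e-11), and the inhibitory Smad7 was at 21.6, 18.3 and 17.9 CPM at 72 h and 25.8, 26.5 and 29.9 CPM at 48 h (-0.50 ± 0.09, adjusted p = 5.2e-05).

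In the BMP pathway 13 of 24 measured genes rose and 1 fell, with a median of 0.53. Among the ligands, Bmp7 was at 17.1, 20.6 and 18.6 CPM at 72 h, against 2.04, 1.78 and 1.60 CPM at 48 h (3.36 ± 0.13, adjusted p = 3.5e-13). Bmp5 was at 1.28, 1.30 and 1.105 CPM at 72 h and at 0 in all 48 h libraries, at least 22.9-fold higher (adjusted p = 7.6e-07). Bmp4, the ligand that extraembryonic ectoderm sends to the epiblast, was the member that fell, to 3.30, 2.71 and 2.21 CPM at 72 h against 6.57, 5.74 and 8.27 CPM at 48 h (-1.30 ± 0.18, adjusted p = 6.0e-06). Antagonists rose as well. Fst, follistatin, which binds activins and BMPs, was at 374, 476 and 351 CPM at 72 h and 16.8, 16.9 and 20.8 CPM at 48 h (4.47 ± 0.24, adjusted p = 1.8e-11). The inhibitory Smad6 was at 3.998, 4.01 and 4.48 CPM at 72 h and 1.27, 1.63 and 1.35 CPM at 48 h (1.54 ± 0.15, adjusted p = 8.4e-08).

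FGF ligands moved in both directions. Fgf4 fell and Fgf8 rose, as given above, and Fgf15, a ligand of the endocrine FGF subfamily, fell to 8.42, 7.66 and 4.35 CPM at 72 h, against 49.2, 48.6 and 49.2 CPM at 48 h (-2.82 ± 0.16, adjusted p = 5.3e-11). Fgf17, of the Fgf8 subfamily, was at 7.89, 7.50 and 5.26 CPM at 72 h and 1.78, 1.48 and 2.5001 CPM at 48 h (1.87 ± 0.28, adjusted p = 1.3e-05). Fgf13, an intracellular member of the family that does not signal through the receptors, rose by 0.83 ± 0.14 (adjusted p = 3.7e-05). Receptors differed too. Fgfr1, the receptor that streak cells need, was at 239, 241 and 269.5 CPM at 72 h and 134, 131 and 124 CPM at 48 h (0.95 ± 0.15, adjusted p = 2.2e-05), while Fgfr2 was at 3.89, 3.80 and 4.94 CPM at 72 h and 13.7, 13.9 and 11.3 CPM at 48 h (-1.64 ± 0.13, adjusted p = 3.0e-09). Fgfr2 is listed at 0 in the deposited FPKM of these libraries, which gave no change. The list as a whole had 4 of 13 members higher, near the share over all tested genes (31.1%), and 6 lower (30.3% over all tested genes). Downstream, 4 of 11 feedback genes of ERK signalling were higher and 4 lower, near the shares over all tested genes (31.1% and 30.3%). Without the 3 control libraries numbered 3, 7 of these feedback genes were higher. Il17rd, a membrane inhibitor of FGF signalling, was at 269, 291 and 276 CPM at 72 h and 82.0, 81.0 and 75.8 CPM at 48 h (1.81 ± 0.08, adjusted p = 1.2e-12). Spred1, an inhibitor of Ras and Raf, rose by 1.72 ± 0.09 (adjusted p = 2.3e-11). The ETS effector Etv5 was at 289.8, 280.0 and 278 CPM at 72 h and 488, 488 and 478 CPM at 48 h (-0.78 ± 0.04, adjusted p = 2.2e-12), and the Sprouty inhibitor Spry1 fell by 1.13 ± 0.09 on the log2 scale (adjusted p = 8.3e-09).

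In the Notch pathway 8 of 18 measured genes rose and 5 fell. Dll1, the ligand of presomitic mesoderm, fell to 6.02, 7.35 and 13.9 CPM at 72 h, against 32.6, 31.8 and 32.6 CPM at 48 h (-1.86 ± 0.26, adjusted p = 7.3e-06), with replicate 3 the highest at 72 h. The fringe enzymes Mfng (-1.34 ± 0.17, adjusted p = 1.9e-06) and Lfng (-1.40 ± 0.41, adjusted p = 0.0067), which tune Notch to its ligands, the DNA-binding effector Rbpj (-0.56 ± 0.06, adjusted p = 3.3e-07) and the receptor Notch2 (-0.42 ± 0.07, adjusted p = 3.6e-05) were the other members that fell. The target gene Hes1 was at 34.2, 29.5 and 27.3 CPM at 72 h and 10.7, 12.1 and 13.6 CPM at 48 h (1.33 ± 0.12, adjusted p = 2.5e-08). Nrarp, a feedback inhibitor of Notch, was at 12.1, 11.0 and 9.36 CPM at 72 h and 3.56, 3.61 and 4.23 CPM at 48 h (1.52 ± 0.15, adjusted p = 1.1e-07), and Notch3 rose by 0.71 ± 0.08 (adjusted p = 3.2e-07).

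Retinoic acid genes rose in 6 of 14 measured cases and fell in 3. The nuclear receptor partner Rxra was at 64.1, 70.1 and 60.4 CPM at 72 h, against 24.6, 23.8 and 21.6 CPM at 48 h (1.47 ± 0.07, adjusted p = 1.9e-12), and Rxrg rose by 1.19 ± 0.12 (adjusted p = 1.1e-07). The retinoic acid receptors Rara (-0.61 ± 0.11, adjusted p = 0.00014) and Rarg (-0.66 ± 0.16, adjusted p = 0.0016) fell, and Crabp2, which hands retinoic acid to the receptors, was at 15.1, 15.9 and 23.2 CPM at 72 h and 35.0, 33.2 and 35.3 CPM at 48 h (-0.94 ± 0.14, adjusted p = 8.6e-06).

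Of 12 measured hedgehog genes 7 rose and 3 fell, and the hedgehog-binding inhibitors and targets Ptch1 and Hhip were among those that fell. Ptch1 was at 77.1, 85.2 and 79.0 CPM at 72 h, against 149, 150.0 and 154 CPM at 48 h (-0.91 ± 0.05, adjusted p = 1.2e-11). Hhip was at 0.1599, 0.156 and 0.325 CPM at 72 h and 2.29, 2.42 and 2.24 CPM at 48 h (-3.45 ± 0.33, adjusted p = 5.3e-08). The coreceptor Boc was at 8.90, 8.60 and 9.16 CPM at 72 h and 3.97, 3.56 and 3.72 CPM at 48 h (1.24 ± 0.13, adjusted p = 1.9e-07). In the Hippo pathway, which restrains growth through the coactivators Yap1 and Taz, 4 of 11 genes rose, near the share over all tested genes (31.1%), and 2 fell. Tead1, the DNA-binding partner, was at 144, 149 and 149 CPM at 72 h and 55.9, 53.2 and 50.7 CPM at 48 h (1.47 ± 0.06, adjusted p = 9.1e-13). Wwtr1, which encodes Taz, was at 54.2, 60.2 and 61.1 CPM at 72 h and 24.04, 24.05 and 26.4 CPM at 48 h (1.24 ± 0.07, adjusted p = 1.8e-11), while Yap1 was at 213, 218 and 204 CPM at 72 h and 279, 283 and 270.3 CPM at 48 h (-0.39 ± 0.04, adjusted p = 1.1e-07). The target Ccn1 rose by 0.55 ± 0.16 (adjusted p = 0.0073). The 2 coactivators thus changed in opposite directions with separated libraries.

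Guidance molecules, which sort cells and steer their movement by contact or secreted cues, rose in 18 of 32 measured cases and fell in 5, with a median of 0.81. Ntn1, the secreted cue netrin, was at 67.3, 78.6 and 98.9 CPM at 72 h, against 0.917, 1.43 and 1.54 CPM at 48 h (5.98 ± 0.22, adjusted p = 1.3e-13). The Eph receptor tyrosine kinases Epha1, Epha2 and Epha7 rose together. Epha1 was at 307, 334 and 261 CPM at 72 h and 65.6, 59.4 and 57.0 CPM at 48 h (2.31 ± 0.08, adjusted p = 5.3e-14). Epha2 was at 284, 278 and 381 CPM at 72 h and 49.6, 48.8 and 47.0 CPM at 48 h (2.69 ± 0.12, adjusted p = 2.4e-12). Epha7 was at 25.2, 29.4 and 28.6 CPM at 72 h and 4.07, 4.50 and 4.68 CPM at 48 h (2.65 ± 0.10, adjusted p = 9.0e-14). Among the members that fell were 2 receptors of the B class, Ephb1 to 0.959, 1.09 and 1.49 CPM at 72 h against 11.5, 9.20 and 12.1 CPM at 48 h (-3.22 ± 0.26, adjusted p = 6.4e-09) and Ephb3 with a log2 fold change of -0.70 ± 0.09 (adjusted p = 1.3e-06). The ephrin ligand Efnb2 (-0.81 ± 0.12, adjusted p = 7.4e-06) and the netrin receptor Unc5b (-0.65 ± 0.13, adjusted p = 0.00022) also fell.

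Cadherins and the factors that govern the passage from epithelium to mesenchyme moved both ways. Of 14 measured genes on their list 6 rose and 7 fell. Snai1, a repressor of E-cadherin in the streak, was at 16.8, 16.2 and 12.5 CPM at 72 h, against 2.44, 2.97 and 2.56 CPM at 48 h (2.51 ± 0.27, adjusted p = 2.0e-07). Zeb2, a repressor of epithelial genes, was at 18.5, 20.95 and 22.9 CPM at 72 h and 4.58, 4.11 and 4.87 CPM at 48 h (2.205 ± 0.13, adjusted p = 1.2e-10). Cdh2, N-cadherin, was at 26.1, 34.3 and 41.7 CPM at 72 h and 15.9, 14.2 and 13.8 CPM at 48 h (1.203 ± 0.12, adjusted p = 1.4e-07), and the mesenchymal factor Twist1 rose by 1.51 ± 0.14 (adjusted p = 2.7e-08). Ovol2, which guards the epithelial state, fell by 1.42 ± 0.15 on the log2 scale (adjusted p = 1.5e-07). Genes of tight junctions, desmosomes and keratins fell in 11 of 21 cases and rose in 3, with a median of -0.31. The keratin Krt18 was at 11.0, 12.4 and 12.2 CPM at 72 h and 42.4, 43.8 and 34.3 CPM at 48 h (-1.76 ± 0.14, adjusted p = 3.2e-09), and the junction genes Jup, plakoglobin (-0.93 ± 0.06, adjusted p = 4.9e-10), and F11r (-0.60 ± 0.05, adjusted p = 1.9e-09) fell. Dsp, desmoplakin, went against them, at 42.7, 49.98 and 43.9 CPM at 72 h and 9.62, 10.7 and 11.0 CPM at 48 h (2.13 ± 0.10, adjusted p = 5.2e-12), as did the desmosomal cadherin Dsg2 (1.11 ± 0.16, adjusted p = 8.9e-06).

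Matrix genes and integrins rose in 15 of 31 cases and fell in 10. The basement membrane collagen Col4a2 was at 40.5, 46.4 and 43.4 CPM at 72 h, against 10.3, 10.9 and 9.36 CPM at 48 h (2.09 ± 0.10, adjusted p = 3.0e-12), and its partner chain Col4a1 at 88.9, 103 and 96.4 CPM at 72 h and 39.3, 45.3 and 44.4 CPM at 48 h (1.16 ± 0.08, adjusted p = 9.7e-10). The laminin receptors fell. Itga6 was at 82.9, 88.2 and 87.3 CPM at 72 h and 215, 209 and 206 CPM at 48 h (-1.29 ± 0.05, adjusted p = 2.3e-13). Itga3 was at 15.3, 14.0 and 15.1 CPM at 72 h and 57.4, 56.3 and 68.0 CPM at 48 h (-2.03 ± 0.08, adjusted p = 4.3e-13), and no library of either gene overlapped between groups.

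More of the listed chromatin regulators fell than rose. Of 22 measured Polycomb genes 11 fell and 3 rose, and of 14 trithorax and histone demethylase genes 11 fell and 1 rose, with medians of -0.30 and -0.36. Jarid2, a subunit that recruits the Polycomb methyltransferase, was at 153, 162 and 143 CPM at 72 h, against 389, 400.0 and 369 CPM at 48 h (-1.34 ± 0.06, adjusted p = 3.2e-12). Mtf2, another accessory subunit, was at 164, 164 and 166 CPM at 72 h and 282, 282 and 326 CPM at 48 h (-0.85 ± 0.05, adjusted p = 2.7e-11). Cbx7, the chromobox protein that predominates in embryonic stem cells, was at 178, 166 and 169 CPM at 72 h and 337, 329 and 319 CPM at 48 h (-0.94 ± 0.07, adjusted p = 7.8e-10), and Pcgf6 fell by 0.53 ± 0.04 on the log2 scale (adjusted p = 6.8e-09). Kdm5b, which removes methyl groups from lysine 4 of histone H3, was at 249.5, 250.4 and 249 CPM at 72 h and 477, 469 and 479.6 CPM at 48 h (-0.93 ± 0.04, adjusted p = 3.2e-13). Ash2l (-0.68), Kdm4c (-0.62) and Kmt2b (-0.55) fell by less. Kdm6b, a demethylase of the Polycomb mark, was the trithorax and demethylase member that rose, at 113, 116 and 137 CPM at 72 h and 85.1, 83.2 and 96.9 CPM at 48 h (0.46 ± 0.12, adjusted p = 0.0021). Rbbp7, the Polycomb and deacetylase subunit given above, is on neither list and rose by 1.54 ± 0.05.

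Imprinted genes rose in 8 of 24 cases and fell in 9, near the shares over all tested genes (31.1% and 30.3%). On log2(FPKM + 1) 5 of them fell. The neighbouring genes Peg10 and Sgce both rose. Peg10, a retrotransposon-derived gene, was at 232, 240.4 and 308 CPM at 72 h, against 60.1, 65.7 and 55.2 CPM at 48 h (2.11 ± 0.10, adjusted p = 3.4e-12), and Sgce, a sarcoglycan, at 9.86, 8.91 and 9.42 CPM at 72 h and 1.78, 2.08 and 1.47 CPM at 48 h (2.38 ± 0.13, adjusted p = 3.2e-11). Gnas, the stimulatory G protein, rose by 0.68 ± 0.04 (adjusted p = 2.4e-11) and Ndn, necdin, by 0.92 ± 0.08 (adjusted p = 1.4e-08).

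Replication genes fell in 19 of 21 cases and mitosis genes in 15 of 19, with medians of -0.37 and -0.34, so these were wide but shallow changes. Cyclins and inhibitors of their kinases rose in 5 of 16 measured cases and fell in 4, near the shares over all tested genes (31.1% and 30.3%). Their median was -0.07, and 2 rose and 1 fell by 2-fold or more. Cdkn1a, the inhibitor p21, was at 450.2, 458 and 494 CPM at 72 h, against 61.3, 60.1 and 58.4 CPM at 48 h (2.96 ± 0.07, adjusted p = 3.0e-16). Ccnd2, a D-type cyclin, was at 137, 164 and 185 CPM at 72 h and 5.30, 4.75 and 5.64 CPM at 48 h (4.96 ± 0.13, adjusted p = 1.4e-15), and Ccnd3 rose by 0.44 ± 0.07 (adjusted p = 4.2e-05). Ccne1, the cyclin of entry into S phase, was at 119.5, 122 and 124 CPM at 72 h and 257, 263 and 249 CPM at 48 h (-1.08 ± 0.04, adjusted p = 1.7e-13). The groups did not overlap for any of these 4 genes. In the Myc family 5 of 10 genes fell and 2 rose. Mycn, the growth-promoting factor of embryonic progenitors, fell to 39.1, 33.3 and 37.1 CPM at 72 h, against 254, 244 and 249.5 CPM at 48 h (-2.77 ± 0.12, adjusted p = 6.7e-13). Myc itself averaged 45.7 ± 1.01 CPM at 72 h and 45.8 ± 2.67 CPM at 48 h (SD, n = 3) and did not pass. Among the Myc antagonists Mnt (-0.76 ± 0.05, adjusted p = 1.0e-09) and Mxi1 (-0.62 ± 0.07, adjusted p = 5.2e-07) fell, and Mxd4 (0.85 ± 0.14, adjusted p = 5.0e-05) rose.

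Metabolic lists changed by small steps, with a few large exceptions. Of 17 measured TCA cycle genes 11 rose and 1 fell, with a median of 0.23. Mdh1, a malate dehydrogenase, was at 219, 230.1 and 218 CPM at 72 h, against 150.4, 156 and 151 CPM at 48 h (0.54 ± 0.04, adjusted p = 1.1e-09), and the pyruvate dehydrogenase subunit Pdha1 rose by 0.48 ± 0.04 (adjusted p = 3.7e-08). Cs, citrate synthase, was the member that fell (-0.18 ± 0.03, adjusted p = 0.00011). Nuclear genes of the respiratory chain rose in 35 of 68 cases and fell in 5 (median 0.16), and glycolysis genes rose in 2 of 22 and fell in 14 (median -0.30). Of 84 cytosolic ribosomal protein genes 10 were higher and 8 lower in counts, but 42 were higher and 4 lower on log2(FPKM + 1).

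Among genes of lipid synthesis, 10 of 22 sterol genes fell and 6 rose in counts, while 8 fell and 9 rose on log2(FPKM + 1). Of 12 fatty acid genes 6 fell and 3 rose. Ebp, the sterol isomerase of a late step, stood apart from its list, at 47.8, 49.98 and 44.9 CPM at 72 h against 4.99, 5.84 and 6.80 CPM at 48 h (3.03 ± 0.09, adjusted p = 8.0e-15). The following desaturase Sc5d rose by 0.54 ± 0.06 (adjusted p = 1.5e-07), while the earlier enzymes Sqle (-0.52 ± 0.04, adjusted p = 1.2e-08) and Fdft1 (-0.56 ± 0.06, adjusted p = 3.6e-07) fell. The acyl-CoA synthetases, which activate fatty acids, diverged. Acsl3 was at 227, 256 and 282 CPM at 72 h and 97.4, 94.9 and 92.4 CPM at 48 h (1.42 ± 0.07, adjusted p = 8.7e-12). Acsl4, which prefers arachidonic acid, was at 127, 131 and 111 CPM at 72 h and 299.6, 305 and 240.3 CPM at 48 h (-1.19 ± 0.07, adjusted p = 8.3e-11), and the desaturase Fads2 fell by 0.65 ± 0.05 on the log2 scale (adjusted p = 1.9e-09).

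Genes of the amino acid response driven by Atf4 fell in 15 of 20 cases and rose in 1, with a median of -0.46. Nupr1, a stress-induced chromatin protein, was at 1.60, 1.88 and 1.62 CPM at 72 h, against 10.1, 12.5 and 21.9 CPM at 48 h (-3.10 ± 0.24, adjusted p = 3.2e-09). Trib3, a pseudokinase of the response, was at 15.5, 12.4 and 9.49 CPM at 72 h and 31.4, 33.9 and 36.7 CPM at 48 h (-1.44 ± 0.13, adjusted p = 2.2e-08). Mthfd2, of mitochondrial folate metabolism, was at 93.0, 88.2 and 69.8 CPM at 72 h and 144, 149.8 and 154 CPM at 48 h (-0.83 ± 0.07, adjusted p = 1.6e-08), and the amino acid transporter chain Slc3a2 fell by 0.45 ± 0.05 on the log2 scale (adjusted p = 8.9e-07). At 72 h replicate 3 was the lowest for Trib3 and Mthfd2. Ddit4, an inhibitor of mTOR signalling on the hypoxia list, was at 254, 262 and 284 CPM at 72 h and 73.7, 71.2 and 77.1 CPM at 48 h (1.85 ± 0.09, adjusted p = 5.6e-12), and the immediate early factor Egr1 at 20.1, 23.4 and 27.8 CPM at 72 h and 6.26, 5.54 and 5.58 CPM at 48 h (2.03 ± 0.21, adjusted p = 1.4e-07).

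Of 10 measured blood and endothelium genes 7 fell and 3 rose, with a median of -1.16. Tal1, a blood and endothelium factor, was at 0.586, 0.417 and 0.455 CPM at 72 h, against 5.19, 4.55 and 5.19 CPM at 48 h (-3.33 ± 0.24, adjusted p = 1.4e-09), and the angiopoietin receptor Tek at 1.87, 1.98 and 2.92 CPM at 72 h and 12.1, 10.8 and 11.2 CPM at 48 h (-2.35 ± 0.15, adjusted p = 1.8e-10). Lmo2, a partner of Tal1, rose to 9.33, 12.04 and 10.6 CPM at 72 h, against 2.24, 2.47 and 2.05 CPM at 48 h (2.23 ± 0.26, adjusted p = 5.2e-07).

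The early 48 h gastruloids allow a comparison of equal pulse length at another age, since both groups were sampled as 24 h of CHIR ended. Against them 5078 genes were higher in control 72 h (31.7%) and 4730 lower (29.5%), or 5743 higher and 2746 lower on log2(FPKM + 1). This comparison shares the control 72 h libraries with that against control 48 h, so the values are given side by side and no overlap is read from them. Wnt feedback genes were higher in control 72 h in 11 of 14 cases and lower in 1, with a median of 0.78 on the log2 scale, and ligands in 8 of 10 with none lower. Axin2 was at 215, 234 and 196 CPM in control 72 h and 119, 117 and 125 CPM in early 48 h (0.84 ± 0.06, adjusted p = 1.2e-09). Tnfrsf19 was at 115, 121 and 149 CPM in control 72 h and 85.3, 79.2 and 81.8 CPM in early 48 h (0.64 ± 0.08, adjusted p = 1.4e-06). T was at 1008, 1263 and 872 CPM in control 72 h and 39.2, 37.2 and 45.4 CPM in early 48 h (4.69 ± 0.18, adjusted p = 3.3e-13), and Sp5 at 50.9, 56.3 and 49.0 CPM in control 72 h and 8.07, 6.75 and 12.9 CPM in early 48 h (2.497 ± 0.15, adjusted p = 7.8e-10). Wnt3a was at 7.52, 10.9 and 7.60 CPM in control 72 h and 0.290, 0.123 and 0.0572 CPM in early 48 h (5.67 ± 0.34, adjusted p = 1.3e-10), and Apln at 73.2, 103 and 83.8 CPM in control 72 h and 7.93, 9.45 and 9.44 CPM in early 48 h (3.28 ± 0.20, adjusted p = 1.5e-10).

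Some genes that changed between control 48 h and control 72 h had nearly the same level at the end of both pulses. Ntn1 was at 67.3, 78.6 and 98.9 CPM in control 72 h and 94.1, 81.8 and 95.4 CPM in early 48 h (-0.15 ± 0.14, adjusted p = 0.35), with overlapping libraries. Sox4 was at 31.3, 32.8 and 30.8 CPM in control 72 h and 29.5, 31.9 and 32.6 CPM in early 48 h (0.02 ± 0.10, adjusted p = 0.9), and Itga3 at 15.3, 14.0 and 15.1 CPM in control 72 h and 13.6, 13.2 and 14.7 CPM in early 48 h (0.10 ± 0.09, adjusted p = 0.36). A p that misses the threshold does not show that the levels were equal. Other genes differed between the ends of the pulses. Dnmt3l was at 5.76, 5.21 and 6.04 CPM in control 72 h and 243, 209.8 and 244 CPM in early 48 h (-5.36 ± 0.14, adjusted p = 7.9e-15), so that untreated control 48 h lay between them. Krt18 was higher in control 72 h, at 11.0, 12.4 and 12.2 CPM, than in early 48 h, at 4.54, 5.22 and 5.55 CPM (1.22 ± 0.16, adjusted p = 3.4e-06), although it fell against untreated control 48 h, and Crabp2 did the same, at 15.1, 15.9 and 23.2 CPM in control 72 h and 7.20, 8.04 and 7.67 CPM in early 48 h (1.23 ± 0.16, adjusted p = 2.5e-06). Nodal was at 148, 129 and 73.8 CPM in control 72 h and 164, 174 and 183 CPM in early 48 h (-0.56 ± 0.18, adjusted p = 0.013). Tight junction, desmosome and keratin genes were higher in control 72 h in 13 of 21 cases and lower in 4, DNA methylation genes higher in 1 and lower in 12 of 13, Atf4 response genes lower in 19 of 20, and all 18 measured Platr RNAs were lower.

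Levels at the other ages place the step in a time course. In the control arm Ccnd2 averaged 5.23 ± 0.450 CPM at 48 h, 162 ± 24.3 CPM at 72 h and 472 ± 8.17 CPM at 96 h, the highest of the 6 group means. Dll1 averaged 32.3 ± 0.487, 9.09 ± 4.22 and 337 ± 119 CPM at the same control ages, so its 72 h level was the lowest of the 3. Cdkn1a averaged 59.9 ± 1.46, 467 ± 23.4 and 196 ± 23.3 CPM, with its peak at 72 h. Mycn averaged 249 ± 5.18, 36.5 ± 2.93 and 112 ± 24.02 CPM, and Fgf4 191 ± 11.8, 7.11 ± 0.992 and 73.7 ± 11.8 CPM, both lowest at 72 h. In the early arm the means of Ntn1 and Dnmt3l were highest at its own end of pulse. That was the first age sampled, so earlier levels are not known. Ntn1 averaged 90.4 ± 7.51 CPM at 48 h, 25.7 ± 0.622 CPM at 72 h and 33.1 ± 3.01 CPM at 96 h, and Dnmt3l 232 ± 19.3, 61.4 ± 4.52 and 18.97 ± 3.54 CPM at those ages. These group means (SD, n = 3) are a description, and the differences after 72 h were not tested here.

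**Figure D4:**
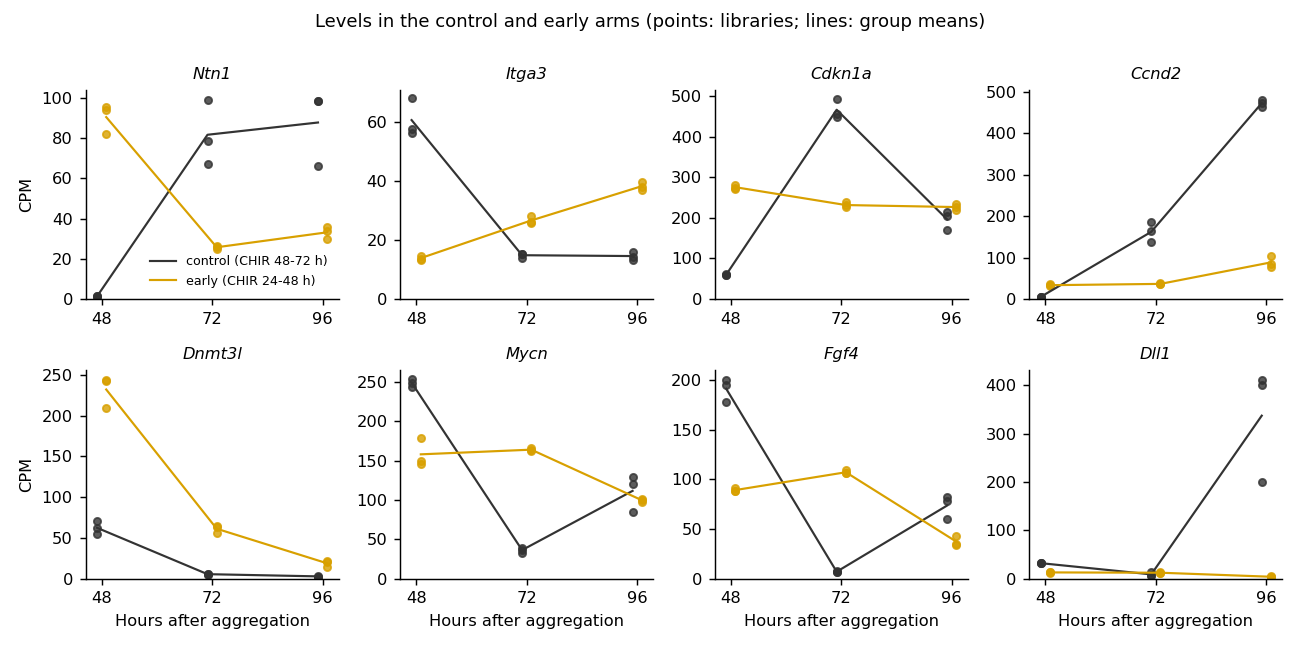
Levels in CPM of 8 genes at 48, 72 and 96 h after aggregation in the control arm (dark, CHIR 48 to 72 h) and the early arm (yellow, CHIR 24 to 48 h), with points for libraries and lines through the group means of 3. Cdkn1a peaks at control 72 h, Mycn, Fgf4 and Dll1 are lowest there in the control arm, and Ntn1 and Itga3 have similar levels at the end of either pulse.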

How the data were processed

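The 18 libraries hold polyA RNA of gastruloids, prepared with a kit for stranded mRNA by ligation, per the labels' protocols. The protocols name 2 preparation codes that are not assigned to libraries, so no batch could be fitted. Reads were processed with cutadapt 4.0, STAR 2.7.8a and Cufflinks 2.2.1 on mm10, per the submitters' processing notes. The authors' deposited tables give raw counts for 55385 genes and FPKM, scaled by length and library size, for 55468 genes. The strand setting of the counting is not given in the sources used here, so overlapping antisense genes may share counts. No sample columns (0) were left unused. Gene coordinates are those of the deposited table, counted from 1.

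Total counts ranged from 14841728 to 24536538 per library. Counts were filtered with filterByExpr, which left 16041 genes, scaled by TMM and fitted in edgeR 4.0.16 (R 4.3.3) to every library of the series, each group having its own coefficient. Quasi-likelihood tests were 2-sided, with Benjamini-Hochberg adjustment across the 16041 genes. The SE is the size of the log2 fold change divided by the square root of F. Against a group at 0 counts a fold is a lower bound against a floor of 3 counts for the whole group. Where the group has 1 to 3 counts it is a ratio with an exact 95% interval, and both cover counting error only. Setting genes at 0 to their bound does not move the medians of the Wnt feedback, inhibitor and BMP lists, since the bounds also lie above them. The 63 lists hold 1167 names, and a member is measured if it passed the filter. The lists and members were chosen with earlier results of these data known. Named genes were the 8 largest rises and falls (at least 5 CPM in the higher group, separated libraries), the 5 largest FPKM gains and losses, and list members with the lowest adjusted p, those moving against their list and those not passing, apart from some whose call changed with the settings and a few that are not reported here. Replicate numbers are shared between groups, and deviations from the group means of same-numbered control libraries correlated at r = 0.15, 0.27 and 0.33 over 10475 genes. Replicate 1 of 72 h with 2 of 48 h gave 0.11, and 2 of 72 h with 1 of 48 h gave 0.19. Pairs with replicate 3 on one side only gave -0.30 to -0.18. A pairing of 1 with 1 and of 2 with 2 was thus not shown. The main fit has no term for replicate number, which entered only as the block among the alternatives. No replicate pair held identical values.

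Alternatives were DESeq2 1.42.0 size factors and Wald test, other filters, only the groups compared, a replicate block, glmTreat against 1.2-fold, limma 3.58.1 on log2(FPKM + 1) and log2(FPKM + 0.1), and each library left out. The fit was tested on simulated data. Figures were drawn with matplotlib 3.10.9, and tables were made in Python 3.11.15 (pandas 2.3.3, numpy 2.4.6, scipy 1.17.1).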

Additional observations from a re-analysis of the deposited data

How the results depend on the processing

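Counts of called genes stayed within 1.5 times of those reported under DESeq2 size factors (4825 higher and 5063 lower at control 72 h than at control 48 h), no filter (5003 and 5089), a filter of 1 CPM (4780 and 4665), the DESeq2 Wald test (4639 and 4903), the groups compared alone (4681 and 4580) and without the 3 control libraries numbered 3 (5000 and 4993). With the replicate block they were 5078 and 4944, 1783 and 1563 by 2-fold, and 5088 and 4862 against early 48 h, and the block changed no call of a named gene and moved no list count by over 1.5 times other than those given for presomitic and Hox groups 5 to 9 genes. On the deposited FPKM more genes were higher and fewer lower than at control 48 h, 5135 and 3414 on log2(FPKM + 1), 5201 and 3399 on log2(FPKM + 0.1) and 5003 and 3577 on all genes, and changes were above those in counts by a median of 0.09 to 0.10. Genes higher in control 72 h than in early 48 h numbered 5743, 5858 and 5615 on these settings. On log2(FPKM + 1), 3 Nodal pathway, 1 Hippo, 1 early mesoderm, 1 respiratory chain and 2 heat shock genes fell, 4 heat shock and 2 mitosis genes rose, no Atf4 response gene rose, and 12 Platr RNAs fell and 1 rose. Without the 3 control libraries numbered 3, 3 Atf4 response genes and 1 heat shock gene rose, and DESeq2 size factors gave 1 heat shock gene higher. Changes of 2-fold numbered 627 higher and 409 lower on log2(FPKM + 1), and 628 and 408 on all genes, where the pseudocount shrinks low genes by construction. Genes lower in control 72 h than in early 48 h numbered 2746 on log2(FPKM + 1), 2739 on log2(FPKM + 0.1) and 2910 on all genes, and the cause was not tested. Testing against 1.2-fold left 3106 lower than at control 48 h and 2840 lower than in early 48 h, by its stricter construction. Leaving out each library gave 4636 to 4866 higher and 4529 to 4676 lower, 1725 to 1777 and 1491 to 1669 by 2-fold, and 4558 to 4847 higher and 4355 to 4561 lower than early 48 h. Of 174 genes listed for naming, 163 had the same call in each of the 17 settings that gave them a result, and 3 changed direction. Not every setting gave a result for every gene, and the DESeq2 Wald test gave none for Hoxb1 and Hoxb2. Ctnnb1 was 0.04 on each FPKM setting (0.0354 and 0.0355), and Tet2 was -0.0070 without control 48 h replicate 1 and 0.48 without replicate 3, its lowest and highest value with a library left out. Myc, at 0.00 here, was -0.02 with DESeq2 size factors (-0.0185) and Wald test (-0.0191), -0.0020 without a filter, -0.0050 with 1 CPM, -0.0140 and -0.0122 without control 72 h replicates 1 and 2, and -0.0472 without control 48 h replicate 1, against 0.0346 without replicate 2, its highest. Hsp90ab1 also missed the threshold with DESeq2.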

Other observations

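Lists not described above moved as follows between control 72 h and control 48 h. Replication-dependent histone genes, whose transcripts largely lack a polyA tail, rose in 9 of 28 measured cases and none fell, but without the 3 control libraries numbered 3 only 2 rose and 1 fell. Response genes of p53 rose in 7 of 17 cases and fell in 4, and heat shock genes rose in 2 of 12 and fell in 5. Naive pluripotency genes rose in 8 of 20 cases and fell in 8, whereas against early 48 h they were higher in 2 and lower in 17. T-box factors rose in 3 of 8 cases and fell in 2. Klf and Sp factors rose in 6 of 19 cases and fell in 7, near the shares over all tested genes (31.1% and 30.3%), and against early 48 h they were higher in 3 and lower in 12. Genes of the hypoxia response rose in 6 of 12 cases and fell in 3, and those of the anterior streak and endoderm rose in 5 of 11 and fell in 1.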
